A study of Mus musculus with 12 samples.

Results

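Amino acids, and the neurotransmitters made from them, cross cell membranes through solute carriers, and the genes examined here are the mouse members of 7 solute carrier families, those whose symbol starts with Slc1a, Slc3a, Slc6a, Slc7a, Slc36a, Slc38a or Slc43a. The count tables list 54838 genes, of which 67 carry such a symbol, and 64 of these had at least 10 counts in at least 3 of the 12 libraries and are described. The same minimum was met by 31084 genes in all. Slc36a1os, Slc6a19os and Slc7a12 did not reach it. A further pair, Slc36a3os and Slc7a6os, are opposite-strand genes that share a name with a carrier, so 62 of the described genes are carriers with an assigned role. The minimum was met through the unlesioned libraries alone by 10 members (Slc1a7, Slc36a3, Slc38a8, Slc3a1, Slc6a14, Slc6a16, Slc6a18, Slc6a2, Slc6a21 and Slc7a9), which therefore could pass only if they were not low there.

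RNA came from the spinal cord of mice at postnatal day 60. Control mice were Olig1+/+;Tet1fl/fl and carried no cre allele. Mutant mice were Olig1cre/+;Tet1fl/fl, so that both genotypes were homozygous for the floxed Tet1 allele, which encodes an enzyme that oxidises methylated cytosine in DNA. Lysolecithin (LPC), a lipid that strips myelin where it is injected, was delivered to the ventrolateral white matter, and tissue was taken at 4 days post lesion (4dpl) and, as unlesioned tissue, from the side opposite the injection. Each of the 4 groups (control unlesioned, control 4dpl, mutant unlesioned, mutant 4dpl) had 3 libraries, and the sources used here do not say which libraries share a mouse, so that p-values measure the spread between these libraries. Because cre was driven from the Olig1 locus, cells outside the oligodendroglial lineage keep Tet1 in the mutant, and the cells were enriched on a Percoll gradient without sorting.

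Carriers of these families work in several ways. SLC1 members take up glutamate or exchange small neutral amino acids, SLC6 members use the sodium and chloride gradients to clear GABA, glycine, monoamines, taurine or creatine, and SLC38 members import or release glutamine and other neutral amino acids. The SLC7 light chains are exchangers that reach the membrane bound to a heavy chain of the SLC3 family, most often the one encoded by Slc3a2, also known as CD98. SLC36 members move amino acids together with protons, in part across the lysosomal membrane, where some carriers also report amino acid supply to the growth kinase mTORC1. In the cord, astrocytes are known for glutamate and GABA clearance, neurons for recapture of their own transmitters, and microglia for cationic and neutral amino acid exchange.

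Total counts were between 34805086 and 67251544 per library. Values are given as CPM, counts scaled to the library size after TMM normalization. Tet1, counted over the whole gene and over all cells, was at 15.03, 14.9 and 18.3 CPM in control unlesioned, 12.5, 11.7 and 12.04 in control 4dpl, 16.4, 9.94 and 12.1 in mutant unlesioned and 13.4, 10.9 and 21.5 in mutant 4dpl libraries, so its level did not separate the genotypes, which are taken from the labels. The preparation held oligodendroglial, microglial and other cells. Summed over 8 oligodendrocyte markers the level was 14551 to 28112 CPM unlesioned, and at 4dpl mutant library 3 stood apart with 68816 CPM. The 6 microglial markers summed to 2160.1 to 8380.2 CPM unlesioned and 7518 to 12624 CPM at 4dpl, and 5 of the 6 were called higher at 4dpl. Astrocyte markers (5 genes that are not members) summed to 136 to 525 CPM, neuronal markers (8) to 79.8 to 224, oligodendrocyte precursor (OPC) markers (6) to 185 to 845, endothelial markers (5) to 25.1 to 46.04, pericyte and meningeal markers (6) to 20.99 to 119.7, and macrophage markers (6) to 6602 to 25096 over all libraries. Erythroid genes (5) summed to 12099.6 to 99957 CPM and were highest in control unlesioned libraries 1 (89184) and 2 (99957). Beside the microglial markers, 2 macrophage, 2 astrocyte (of 7, with Slc1a2 and Slc1a3), 2 oligodendrocyte, 3 OPC and 2 pericyte or meningeal markers were called higher and 1 neuronal and 1 pericyte or meningeal marker lower at 4dpl in the mean of the genotypes, with no call among the endothelial and erythroid genes.

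To compare one carrier with another, CPM were divided by exon length in kilobases. On this scale Slc3a2, the heavy chain shared by most SLC7 exchangers, was the most abundant member, with 62.2 ± 22.8 CPM per kb (SD, n = 3) in control unlesioned, 114 ± 11.8 in control 4dpl, 40.1 ± 10.7 in mutant unlesioned and 77.9 ± 7.89 in mutant 4dpl libraries. Slc38a2, which imports glutamine and other neutral amino acids and is known to be induced when these run short, followed at 31.1 ± 12.2 CPM per kb in control unlesioned and 52.7 ± 3.90 in control 4dpl libraries. Next came Slc7a8 (LAT2, a neutral amino acid exchanger) at 16.02 ± 8.71 and 53.2 ± 6.25, Slc6a6 (the taurine transporter) at 22.7 ± 7.10 and 42.8 ± 1.44, and Slc38a10 at 18.7 ± 5.68 and 40.2 ± 3.22 CPM per kb in the same groups. The order given is that of the mean over all 12 libraries. In the unlesioned control libraries the last 3 overlapped, and their order there is not larger than the spread. In the control 4dpl libraries Slc7a8 and Slc38a2 were level within their spread. These 5 carriers held 45.4 to 63.1% of the per-length level summed over all 64 members. The sum of all 64 members in CPM was 1346 to 2312 in the 6 unlesioned and 2424 to 3004 in the 6 libraries at 4dpl, and the ranges did not overlap.

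The lesion comparison asks which carriers changed 4 days after demyelination. A gene was called when edgeR's quasi-likelihood test gave p under 0.01 and a Benjamini-Hochberg adjusted p under 0.05 over all 31109 genes tested. In control mice 12 of the 64 members were called higher at 4dpl, against 5.12% of all genes tested, and 3 were called lower, against 5.01%. All 12 were among the 32 members with a mean of at least 5 CPM, and 13.3% of all genes of that level were called higher. All 3 lower ones were among the 32 under 5 CPM, where 7.46% of all genes were called lower. In the mutant no member was called in either direction, where all genes gave 0.0225% higher and 0.113% lower. With the same libraries 24 of the 64 members had an unadjusted p under 0.05 in the mutant (33.8% of all genes), the smallest adjusted p of edgeR was 0.0532, and DESeq2 called 7 higher and 9 lower. At an adjusted p of 0.10, edgeR called 16 members higher (10.6% of all genes) and 13 lower (13.7%) in control, and 8 higher (9.55%) and 8 lower (11%) in the mutant. The control calls depended on single libraries, with 0 of the 12 higher calls left without control unlesioned library 2, control 4dpl library 1 or control 4dpl library 2, 1 left without control unlesioned library 3 and 5 without mutant unlesioned library 3. Over the mean of both genotypes, with 6 libraries a side, 15 members were called higher (14.2% of all genes) and 14 lower (18.6%). In such bulk samples, fewer cells of a type and less RNA per cell cannot be told apart.

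Direction went with abundance. All 15 members called higher in the mean of the genotypes were among the 32 with a mean of at least 5 CPM, and all 14 called lower were among the 32 under 5 CPM. The same split was present across the genome: of 11474 genes with at least 5 CPM, 36.7% were called higher and 0.85% lower, and of 19635 genes under 5 CPM, 1.05% were called higher and 28.9% lower. The median log2 fold change of the abundant members was 0.67, against 0.44 for all genes of that level, and that of the scarce members was -1.34, against -1.18. Over all 64 members the median was -0.11, and over all genes tested it was -0.28 with TMM and -0.38 with RLE size factors. Under RLE scaling 14 of the 15 higher and all 14 lower calls remained, without Slc38a2. With each of the 12 libraries left out in turn, 13 of the 15 higher and 9 of the 14 lower calls remained in every fit. Slc36a1 was lost without control 4dpl library 3. Slc38a2 was lost in 8 of the 12 fits, Slc6a2 and Slc6a5 in 7, Slc38a8 and Slc6a4 in 9 and Slc1a6 in 10. Of the members called lower, 6 (Slc36a3, Slc38a8, Slc6a14, Slc6a16, Slc6a2 and Slc6a21) had met the count minimum through the unlesioned libraries alone, so that the number called lower is in part set by which members were described.

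**Figure D1:**
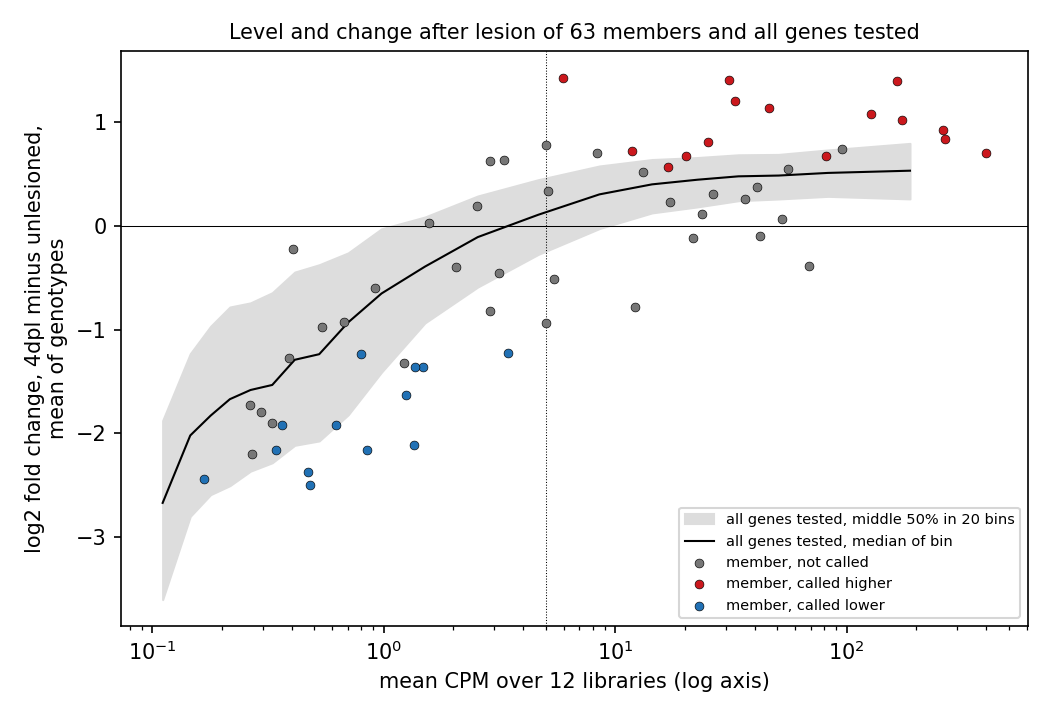
Change after lesion (vertical axis, log2 fold change at 4dpl against unlesioned, mean of the genotypes) against mean level over the 12 libraries (horizontal axis, CPM, log scale) for the members other than Slc6a14. The black line and grey band give the median and the middle part of all genes tested in bins of level, and the dotted line marks 5 CPM. Red points (called higher) all lie to the right of 5 CPM and blue points (called lower) to the left.

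Without regard to the test, 7 members had all 6 libraries at 4dpl above all 6 unlesioned libraries (Slc36a4, Slc38a10, Slc38a7, Slc43a2, Slc6a6, Slc6a8 and Slc7a7), where 7.44% of all genes did. A further 6 had all libraries at 4dpl below all unlesioned ones (Slc36a3, Slc38a11, Slc6a16, Slc6a20a, Slc6a21 and Slc6a3), where 7.42% of all genes did. Slc36a3, Slc6a16 and Slc6a21 had met the count minimum through the unlesioned libraries alone, so their separation is partly built into the selection. The 5 microglial markers called higher moved over the same comparison, and their part in the change of any carrier was not tested.

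**Figure D2:**
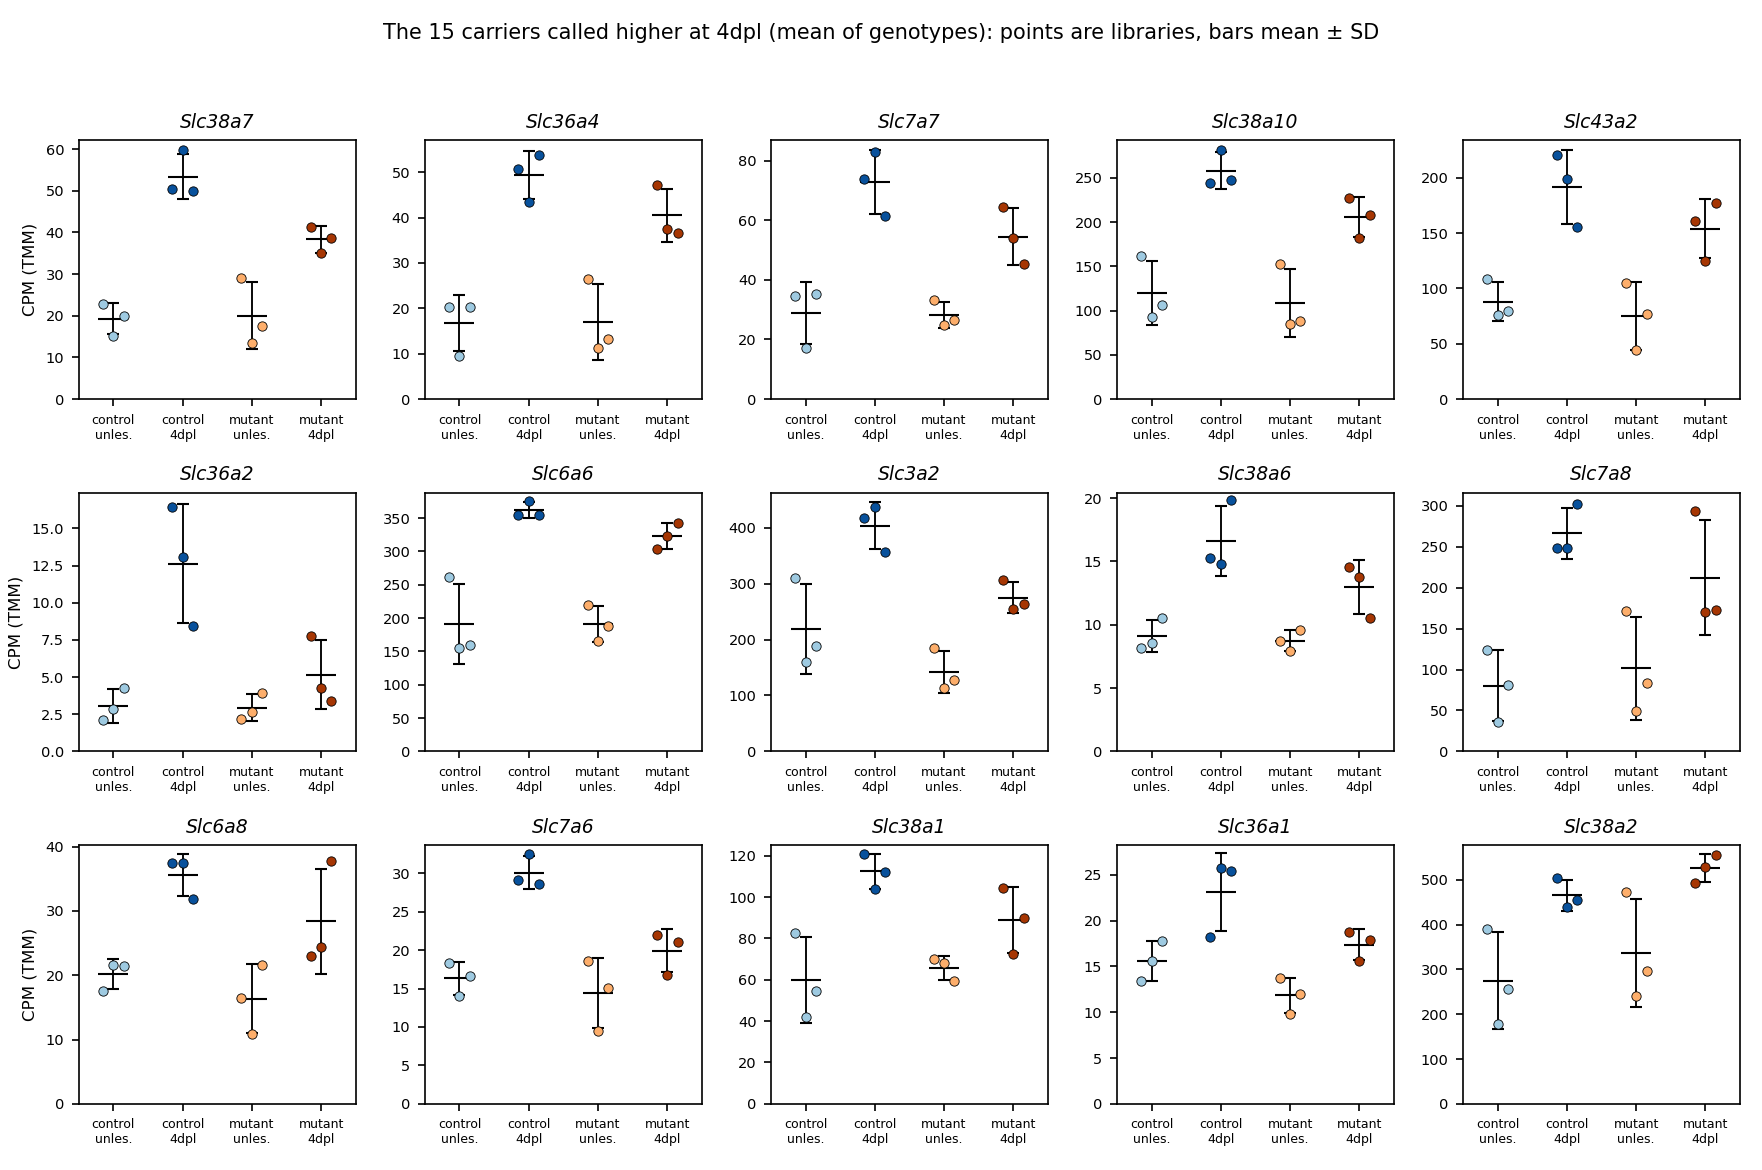
Level in CPM (vertical axes, starting at 0) of the 15 carriers called higher at 4dpl in the mean of the genotypes, in order of p. Each point is a library, the 4 groups stand side by side, and bars give the mean and SD of 3 libraries. In the panels of Slc38a7, Slc36a4, Slc7a7, Slc38a10, Slc43a2, Slc6a6 and Slc6a8 no lesion library reaches down to an unlesioned one.

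Among the heavy and light chains of the amino acid exchangers, 3 of 9 light chains and 1 of 2 heavy chains were called higher in the mean of the genotypes and none lower. At a mean of at least 5 CPM this was 4 of 6 chains, where 36.7% of all genes were called higher. Slc7a7 encodes y+LAT1, which exports cationic amino acids in exchange for neutral ones, and lies on chromosome 14, 54369442 to 54417780 (GRCm38). Its level was 34.4, 17.02 and 35.3 CPM in control unlesioned and 73.9, 82.8 and 61.4 in control 4dpl libraries. In the mutant it was 33.3, 24.8 and 26.6 CPM unlesioned and 64.3, 53.98 and 45.2 at 4dpl. Slc7a7 was thus higher in every lesion library of either genotype, with a log2 fold change of 1.33 ± 0.28 (SE) in control (edgeR adjusted p = 0.0262), 0.95 ± 0.27 in mutant (0.0611) and 1.14 ± 0.19 in the mean (0.00285). Exons of Oxa1l on the other strand cover 7.0% of its exon bases. Slc7a8 on chromosome 14, 54722209 to 54781946 was at 124, 36.4 and 80.6 CPM in control unlesioned and 248, 249 and 303 in control 4dpl libraries. The mutant libraries had 171, 49.6 and 83.1 CPM unlesioned and 293, 169.6 and 173 at 4dpl. Control libraries did not overlap, whereas mutant unlesioned library 1 reached the level of 2 mutant lesion libraries, and the change was 1.73 ± 0.46 (SE) in control (edgeR adjusted p = 0.0392) and 1.40 ± 0.32 in the mean (0.00701). Slc7a6, encoding the related y+LAT2, stood at 18.3, 14.02 and 16.6 CPM in control unlesioned and 29.1, 32.5 and 28.6 in control 4dpl libraries, and at 18.6, 9.53 and 15.1 and 22.03, 16.8 and 21.000 CPM in the mutant. Only the control libraries were separated, with a change of 0.88 ± 0.25 (SE; edgeR adjusted p = 0.0432) and 0.68 ± 0.17 in the mean (0.0105).

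The heavy chain Slc3a2 on chromosome 19, 8706882 to 8723369 was at 311, 159.5 and 189 CPM in control unlesioned and 417, 437 and 357 in control 4dpl libraries. In the mutant it was at 185, 113 and 127 CPM unlesioned and 307, 254 and 264 at 4dpl. Within each genotype the lesion libraries were all above the unlesioned ones, while control unlesioned library 1 was above all 3 mutant lesion libraries, and Slc3a2 was called in the mean at 0.92 ± 0.20 (SE; edgeR adjusted p = 0.00582) but in neither genotype alone (adjusted p = 0.0592 and 0.0642). The light chains Slc7a5 and Slc7a11 did not pass the test. Slc7a5 encodes LAT1, which imports large neutral amino acids, and had 73.7, 40.3 and 27.8 CPM in control unlesioned, 40.98, 36.2 and 34.9 in control 4dpl, 53.2, 32.3 and 33.6 in mutant unlesioned and 53.5, 35.5 and 42.2 in mutant 4dpl libraries. Slc7a11 encodes the cystine-glutamate exchanger xCT and had 164, 81.9 and 45.7, 81.7, 60.7 and 50.04, 38.7, 98.9 and 44.4 and 42.2, 92.3 and 27.3 CPM in the same order of groups. Library 1 was the highest of the control unlesioned group for both, and the log2 fold change in the mean was -0.10 ± 0.22 (SE) for Slc7a5 (edgeR adjusted p = 0.733) and -0.39 ± 0.35 for Slc7a11 (0.386). Of the per-length level of the 6 light chains known to pair with Slc3a2, Slc7a8 held 19.8 to 51.3% in unlesioned and 47.7 to 60.8% in lesion libraries, while Slc7a5 held 17.4 to 29.6% and 9.48 to 16.8%. The remaining light chains (Slc7a9, Slc7a10, Slc7a13, Slc7a15) and the heavy chain Slc3a1 were all scarce and uncalled.

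Of the 4 proton-coupled carriers, the 3 with at least 5 CPM were called higher (36.7% of all genes of that level) and the scarce Slc36a3 lower (28.9% of all genes under 5 CPM) in the mean of the genotypes. Slc36a4, a high-affinity carrier of proline and tryptophan on chromosome 9, 15709738 to 15743361, had 20.3, 9.58 and 20.3 CPM in control unlesioned and 50.8, 43.5 and 53.9 in control 4dpl libraries. Mutant libraries had 26.5, 11.3 and 13.1 CPM unlesioned and 47.2, 37.5 and 36.7 at 4dpl. Every lesion library was above every unlesioned one, and the change was 1.56 ± 0.34 (SE) in control (edgeR adjusted p = 0.0278), 1.25 ± 0.34 in mutant (0.0570) and 1.41 ± 0.24 in the mean (0.00285). Slc36a2, a carrier of glycine and proline on chromosome 11, 55158470 to 55185077, had 2.08, 2.83 and 4.30 CPM in control unlesioned and 16.4, 13.1 and 8.41 in control 4dpl libraries. In the mutant its level was 2.19, 2.66 and 3.94 CPM unlesioned and 7.80, 4.24 and 3.42 at 4dpl. The control groups were apart and the mutant groups overlapped, with a change of 2.04 ± 0.41 (SE) in control (edgeR adjusted p = 0.0256), 0.81 ± 0.40 in mutant (0.164) and 1.43 ± 0.28 in the mean (0.00450). Slc36a1, which exports amino acids from lysosomes, had 13.4, 15.6 and 17.7 CPM in control unlesioned, 18.2, 25.8 and 25.4 in control 4dpl, 13.7, 9.83 and 12.03 in mutant unlesioned and 18.7, 15.5 and 17.9 in mutant 4dpl libraries. The groups were separated within each genotype, and Slc36a1 was called in the mean at 0.56 ± 0.16 (SE; edgeR adjusted p = 0.0155). The scarce Slc36a3 is described with the members that fell.

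The sodium-coupled neutral carriers and their relatives are the largest role, with 11 members. In the mean of the genotypes 5 of the 7 with at least 5 CPM were called higher (36.7% of all genes of that level) and 2 of the 4 scarcer ones lower (28.9%). Slc38a7, a lysosomal carrier that exports glutamine, lies on chromosome 8, 95835920 to 95853539 and was at 22.9, 15.3 and 19.9 CPM in control unlesioned and 50.5, 59.7 and 50.1 in control 4dpl libraries. In the mutant it was at 29.1, 13.4 and 17.6 and 41.4, 34.97 and 38.8 CPM. All lesion libraries were above all unlesioned ones, and the change was 1.47 ± 0.27 (SE) in control (edgeR adjusted p = 0.0250), 0.94 ± 0.27 in mutant (0.0600) and 1.203 ± 0.19 in the mean (0.00257), the smallest p of any member there. Slc38a10, a widely expressed member of the family, on chromosome 11, 120103960 to 120151346, had 161, 92.6 and 106 CPM in control unlesioned, 245, 282 and 248 in control 4dpl, 153, 84.7 and 87.8 in mutant unlesioned and 228, 182 and 208 in mutant 4dpl libraries. These too did not overlap, at 1.11 ± 0.28 (SE; edgeR adjusted p = 0.0364) in control and 1.02 ± 0.20 in the mean (0.00423). Slc38a1, which imports glutamine, had 82.6, 42.1 and 54.7, 121, 104 and 112, 69.9, 67.97 and 59.3 and 104, 72.7 and 89.8 CPM in the same order of groups. Slc38a1 was called in control at 0.91 ± 0.25 (SE; edgeR adjusted p = 0.0417) and in the mean at 0.67 ± 0.18 (0.0113).

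Slc38a6, a brain-expressed member of the same family, had 8.19, 8.58 and 10.6 CPM in control unlesioned, 15.3, 14.8 and 19.8 in control 4dpl, 8.75, 7.93 and 9.56 in mutant unlesioned and 14.6, 13.8 and 10.6 in mutant 4dpl libraries. It was called in control at 0.87 ± 0.23 (SE; edgeR adjusted p = 0.0398) and in the mean at 0.72 ± 0.16 (0.00690). Slc38a2 had 391, 178 and 257, 504, 438 and 454, 473, 241 and 295 and 494, 529 and 556 CPM in that order. Library 1 of each unlesioned group was the highest of its group, and Slc38a2 was called only in the mean, at 0.70 ± 0.22 (SE; edgeR adjusted p = 0.0237), a call that was lost with RLE size factors and without any 1 of control unlesioned libraries 2 and 3, control 4dpl libraries 1 and 2, mutant unlesioned libraries 2 and 3 or mutant 4dpl libraries 2 and 3. Slc38a9 is the lysosomal carrier that senses arginine for mTORC1. Its level was 35.6, 29.1 and 32.7 CPM in control unlesioned and 40.4, 34.9 and 41.6 in control 4dpl libraries, and it did not pass the test (0.26 ± 0.14, SE; edgeR adjusted p = 0.143 in the mean). Slc38a3, a glutamine carrier of astrocytes, had 9.07, 8.10 and 6.98, 12.3, 7.04 and 13.4, 11.7, 17.9 and 10.7 and 14.6, 11.5 and 35.1 CPM. Its mutant change of 0.60 rested on library 3 at 4dpl, the library with the high oligodendrocyte markers, and was -0.02 without it. Slc38a5, another glutamine carrier, had 13.4, 8.12 and 4.38 CPM in control unlesioned and 3.58, 4.13 and 1.80 in control 4dpl libraries, and it missed the p threshold in the mean (-0.94 ± 0.34, SE; edgeR adjusted p = 0.0407, unadjusted 0.0153).

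In the SLC43 family 1 of 3 members was called. Slc43a2, encoding LAT4, which lets branched-chain and other large neutral amino acids pass by facilitated diffusion, lies on chromosome 11, 75531694 to 75577575 and was at 108, 75.7 and 79.9 CPM in control unlesioned and 221, 198 and 156 in control 4dpl libraries. In the mutant it was at 105, 43.9 and 77.2 CPM unlesioned and 161, 125 and 177 at 4dpl. Libraries did not overlap over the 6 against 6, and the change was 1.12 ± 0.30 (SE; edgeR adjusted p = 0.0396) in control and 1.08 ± 0.21 in the mean (0.00435). An opposite-strand gene shares 9.18% of its exon bases, and strandedness of the counting is not given in the sources used here. Slc43a1, encoding LAT3, had 36.04, 21.6 and 10.4 CPM in control unlesioned, 9.74, 11.03 and 5.07 in control 4dpl, 9.01, 13.9 and 4.44 in mutant unlesioned and 10.8, 8.21 and 5.52 in mutant 4dpl libraries. Its change of -0.78 ± 0.33 (SE) in the mean was not called (edgeR adjusted p = 0.0742), and neither was that of Slc43a3, a purine carrier, at 0.12 ± 0.24 (0.709).

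Among the 6 carriers of GABA, betaine, taurine and creatine, 2 of the 4 with at least 5 CPM were called higher (36.7% of all genes of that level) and 1 of the 2 scarcer ones lower (28.9%) in the mean of the genotypes. The taurine transporter Slc6a6 on chromosome 6, 91684053 to 91759066 had 261, 155 and 159 CPM in control unlesioned and 355, 376 and 355 in control 4dpl libraries. Mutant libraries had 219, 165 and 188 CPM unlesioned and 303, 323 and 343 at 4dpl. No lesion library overlapped an unlesioned one, and the change was 0.92 ± 0.25 (SE; edgeR adjusted p = 0.0401) in control and 0.84 ± 0.17 in the mean (0.00500). Slc6a8, the creatine transporter, had 17.5, 21.6 and 21.5, 37.4, 37.5 and 31.9, 16.4, 10.9 and 21.6 and 22.96, 24.3 and 37.8 CPM in the order control unlesioned, control 4dpl, mutant unlesioned and mutant 4dpl. It was separated over the 6 against 6 and called in the mean at 0.81 ± 0.19 (SE; edgeR adjusted p = 0.00746), not in control alone (0.0613). Slc6a13, encoding the GABA and taurine carrier GAT2 known from the meninges, had 5.77, 6.12 and 3.93, 1.61, 1.32 and 2.14, 3.30, 6.41 and 3.35 and 1.36, 3.73 and 2.32 CPM. It fell by 1.64 on the log2 scale in control (edgeR adjusted p = 0.0368) and by 1.23 in the mean (0.00798). The astrocyte GABA transporter Slc6a11 (GAT3) was not called, at -0.51 ± 0.34 (SE; edgeR adjusted p = 0.233) in the mean.

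Of the glycine carriers, Slc6a9 (GlyT1, mainly glial) had 99.7, 47.7 and 51.5 CPM in control unlesioned, 104, 93.02 and 83.3 in control 4dpl, 117, 38.4 and 69.2 in mutant unlesioned and 94.6, 83.3 and 264 in mutant 4dpl libraries. Mutant library 3 at 4dpl stood far above the rest, the change in the mean of 0.74 ± 0.33 (SE) was not called (edgeR adjusted p = 0.0813), and the mutant change moved from 0.98 to 0.27 without that library. Exons of Ccdc24 on the other strand cover 27.8% of its exon bases. Slc6a5 (GlyT2), which reloads glycinergic neurons, was counted 31, 107 and 139 times in control unlesioned, 48, 68 and 50 in control 4dpl, 49, 133 and 115 in mutant unlesioned and 16, 29 and 26 in mutant 4dpl libraries. It was called lower in the mean at -1.36 ± 0.40 (SE; edgeR adjusted p = 0.0189), while control unlesioned library 1 was below the control lesion libraries, and the call was lost in 7 of the 12 fits that left out 1 library.

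The glutamate and aspartate carriers gave 1 call among 5 in the mean of the genotypes, that of the scarce Slc1a6. Slc1a2 and Slc1a3, the main glutamate transporters of astrocytes, were not called. Slc1a2 (GLT-1) had 15.7, 33.8 and 28.1 CPM in control unlesioned, 22.3, 16.5 and 30.9 in control 4dpl, 15.7, 20.9 and 21.9 in mutant unlesioned and 11.3, 20.6 and 23.7 in mutant 4dpl libraries. All 4 groups overlapped, and the change in the mean was -0.11 ± 0.24 (SE; edgeR adjusted p = 0.712). Slc1a3 (GLAST) had 27.9, 22.5 and 38.3, 35.4, 33.9 and 49.1, 50.2, 36.4 and 39.3 and 51.97, 41.3 and 64.4 CPM in the same order, with 0.37 ± 0.18 (SE; edgeR adjusted p = 0.109) in the mean. Over the same comparison the astrocyte marker Gfap rose by 1.88 on the log2 scale (SE 0.24; edgeR adjusted p = 0.00190). Gfap was the highest of the 7 astrocyte markers, which include Slc1a2 and Slc1a3. Their median was 0.55, and 2 of the 7 were called higher. Slc1a1, the glutamate and cysteine carrier EAAC1, had 2.42, 2.04 and 2.38 CPM in control unlesioned, 3.60, 4.66 and 6.36 in control 4dpl, 8.66, 3.75 and 3.90 in mutant unlesioned and 7.87, 5.07 and 9.64 in mutant 4dpl libraries. Its change of 0.78 ± 0.27 (SE) in the mean missed the p threshold (edgeR adjusted p = 0.0334, unadjusted 0.0114), and 4430402I18Rik on the other strand covers 42.6% of its exon bases.

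The neutral exchangers of the SLC1 family differed from each other. Slc1a4 encodes ASCT1, which exchanges alanine, serine and cysteine, and lies on chromosome 11, 20302180 to 20332713. It was at 4.64, 3.40 and 3.32 CPM in control unlesioned and 11.7, 8.43 and 8.29 in control 4dpl libraries, and was called there at 1.32 ± 0.34 (SE; edgeR adjusted p = 0.0370). In the libraries labelled mutant it was at 10.9, 13.6 and 5.05 CPM unlesioned and 9.62, 9.10 and 12.4 at 4dpl, 2 of the unlesioned libraries being as high as those at 4dpl, with a change of 0.08 ± 0.33 (SE; 0.883 by edgeR) that was -0.06 with RLE size factors. Slc1a5 (ASCT2, a glutamine exchanger) had 90.7, 45.9 and 36.3 CPM in control unlesioned and 57.8, 60.7 and 50.3 in control 4dpl libraries, and 43.4, 58.5 and 33.5 and 51.4, 62.2 and 38.8 in the mutant. Control unlesioned library 1 was the highest, and the change in the mean was 0.07 ± 0.23 (SE; edgeR adjusted p = 0.824). None of the 5 cationic carriers was called, Slc7a1 (CAT1, the main arginine importer) being at 0.23 ± 0.18 (SE; edgeR adjusted p = 0.321) in the mean.

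**Figure D3:**
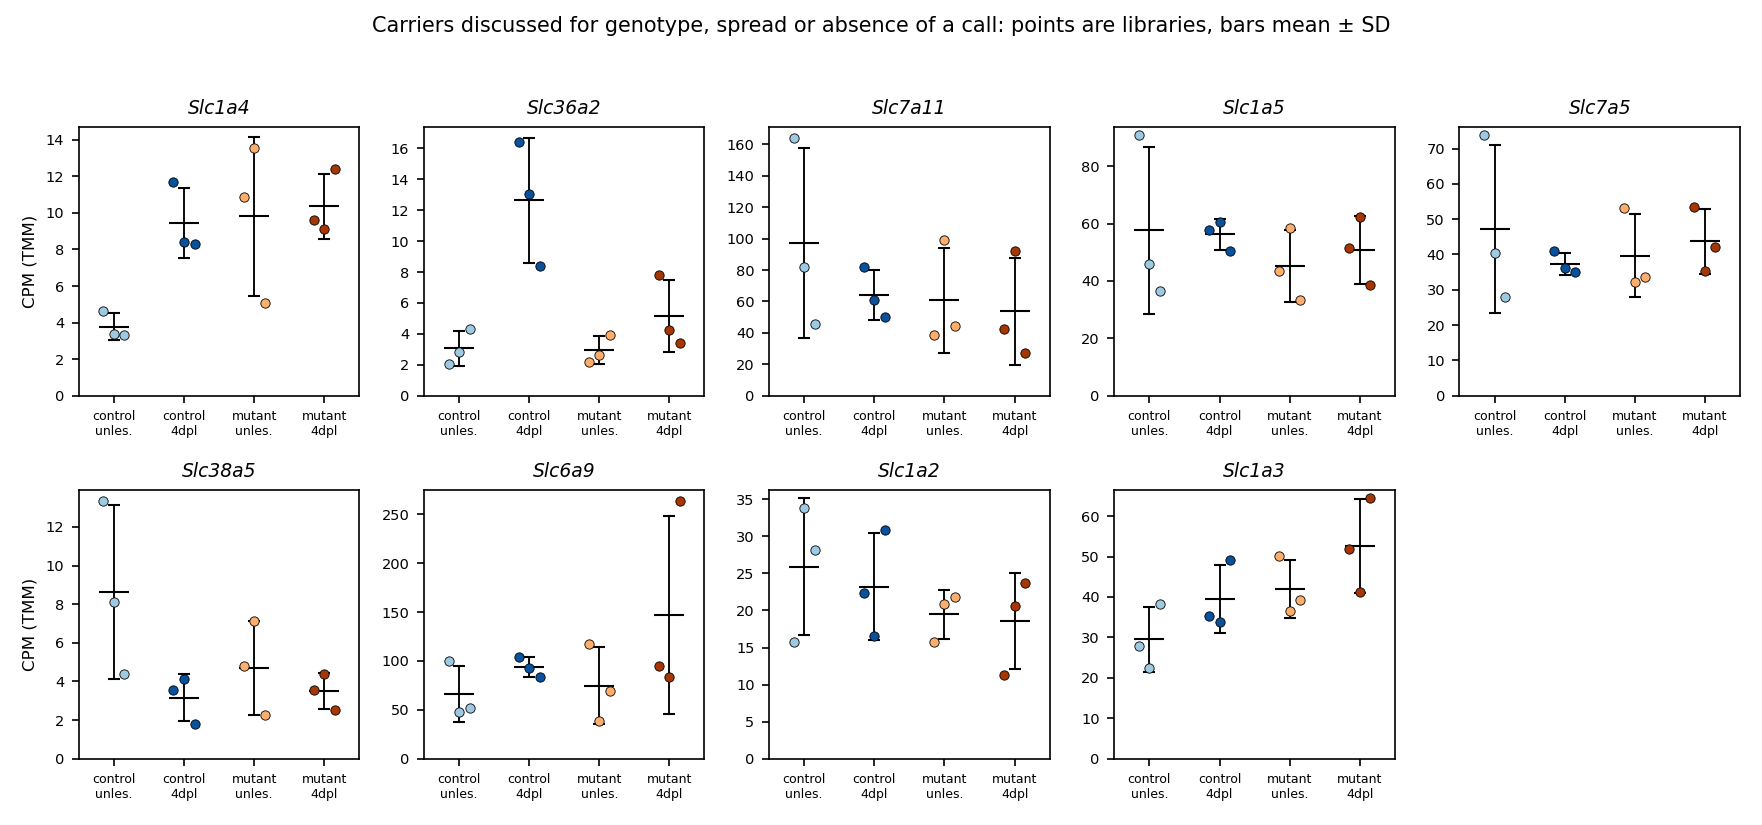
Level in CPM (vertical axes, starting at 0) of 9 carriers described for a genotype comparison, a wide spread or the lack of a call, by library (points) in the 4 groups, with mean and SD of 3 libraries as bars. Slc1a4 is lowest in the control unlesioned libraries, and in the panel of Slc6a9 mutant 4dpl library 3 stands alone at the top.

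The members that fell were scarce. All 3 monoamine carriers, which recapture dopamine (Slc6a3), noradrenaline (Slc6a2) and serotonin (Slc6a4), were called lower in the mean of the genotypes, where 28.9% of all genes under 5 CPM were. The Slc6a3 call remained with each library left out, whereas that of Slc6a2 was lost in 7 and that of Slc6a4 in 9 of the 12 such fits. Slc6a3 on chromosome 13, 73536747 to 73578672 was counted 50, 73 and 60 times in control unlesioned and 10, 21 and 13 in control 4dpl libraries. In the mutant it was counted 70, 116 and 53 times unlesioned and 19, 18 and 6 at 4dpl. The groups were apart in both genotypes, and Slc6a3 was called in control at -2.12 ± 0.57 (SE; edgeR adjusted p = 0.0398) and in the mean at -2.16 ± 0.40 (0.00373). Slc6a2 was at -1.92 ± 0.59 (SE; edgeR adjusted p = 0.0217) and Slc6a4 at -1.36 ± 0.46 (0.0303) in the mean. Slc36a3, a relative of the proton-coupled carriers, was counted 36, 39 and 52 times in control unlesioned, 7, 14 and 6 in control 4dpl, 31, 45 and 35 in mutant unlesioned and 10, 6 and 1 in mutant 4dpl libraries. It was lower in every lesion library, at -2.30 ± 0.69 (SE; edgeR adjusted p = 0.0488) in control and -2.38 ± 0.49 in the mean (0.00494).

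Of the 10 other SLC6 carriers and orphans 5 were called lower and none higher, against 28.9% lower of all genes under 5 CPM. Of these 5, Slc6a14, Slc6a16 and Slc6a21 had met the count minimum through the unlesioned libraries alone, as had the uncalled Slc6a18, so a lower level at 4dpl is partly built into their selection. The orphan Slc6a16 was counted 27, 54 and 33 times in control unlesioned, 9, 6 and 11 in control 4dpl, 35, 39 and 54 in mutant unlesioned and 4, 9 and 2 in mutant 4dpl libraries, without overlap (-2.50 ± 0.50, SE; edgeR adjusted p = 0.00449 in the mean). Slc6a20a, a proline carrier, was at -1.63 ± 0.31 (SE; 0.00402 by edgeR) and its close copy Slc6a20b at -1.92 ± 0.55 (0.0161), and since reads of the pair could be split between them their single values are uncertain. Exons of Sacm1l on the other strand cover 21.1% of the Slc6a20b exon bases, and those of Gm17120 cover 13.8% of Slc6a20a. The orphan Slc6a21 was at -2.16 ± 0.53 (SE; edgeR adjusted p = 0.00877), and Slc38a11 of the neutral carriers at -2.12 ± 0.42 (0.00450). Slc6a14, a carrier of neutral and cationic amino acids, was counted 5, 5 and 15 times in control unlesioned, 10, 2 and 0 in control 4dpl, 15, 9 and 10 in mutant unlesioned and 0, 0 and 0 in mutant 4dpl libraries. Set against a floor of 3 counts per library, its mutant level at 4dpl was at least 3.31-fold lower than unlesioned. Slc1a6 and Slc38a8 complete the 14 members called lower. The 8 neuronal markers summed to 79.8 to 142 CPM unlesioned and 102 to 224 CPM at 4dpl, with 4 of the 8 above 0 in log2 fold change and 1, Syt1, called lower in the mean of the genotypes.

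**Figure D4:**
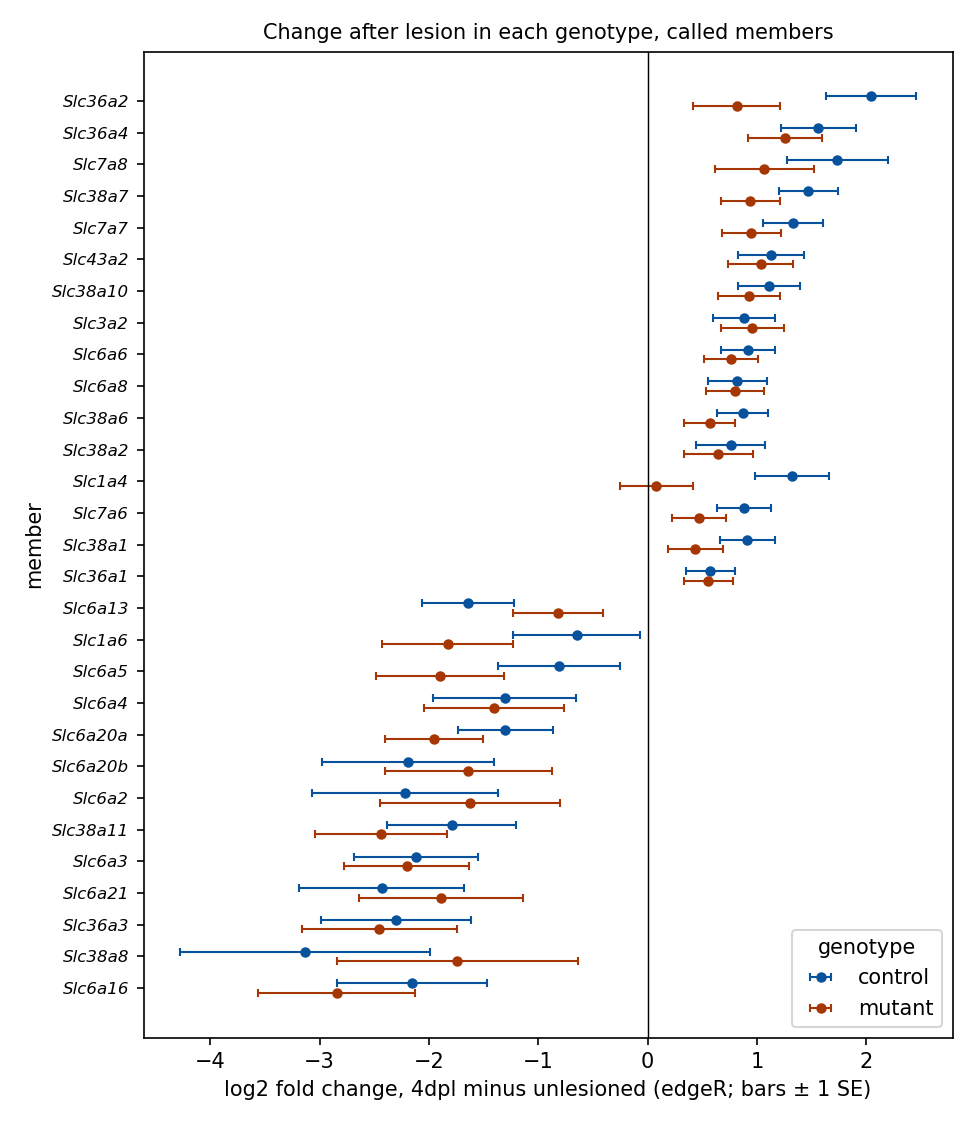
Log2 fold change at 4dpl against unlesioned (horizontal axis) in control (blue) and mutant (red) libraries for each called member other than Slc6a14, with bars of 1 SE from edgeR. Points lie on the same side of 0 in both genotypes for all members shown, although the mutant value of Slc1a4, 0.08, was -0.06 with RLE size factors, and the points of Slc1a4 are furthest apart among the members called higher.

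**Figure D5:**
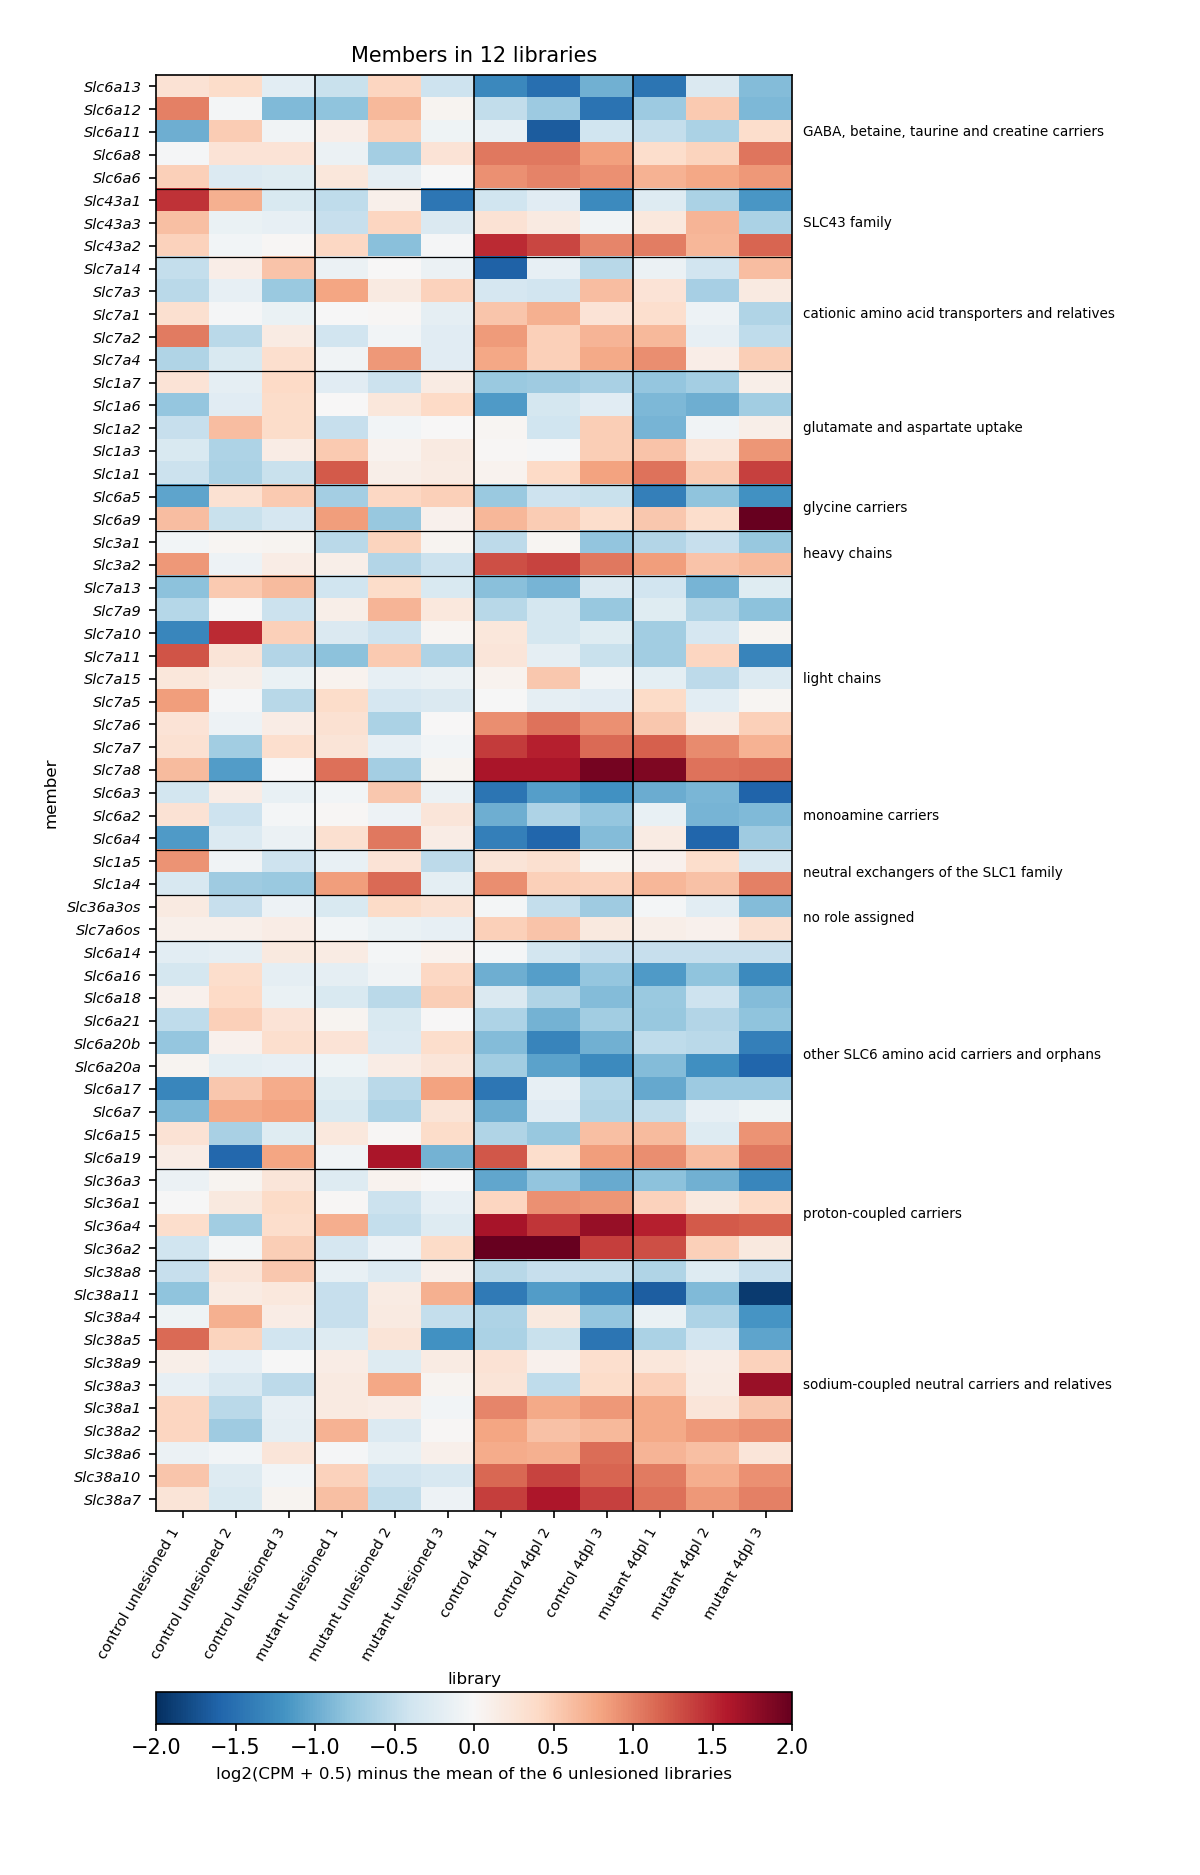
Members (rows, by role) in the 12 libraries (columns). Colour gives log2(CPM + 0.5) minus the mean of the 6 unlesioned libraries, from blue (lower) to red (higher). Red in the lesion columns is seen for Slc7a6, Slc7a7, Slc7a8, Slc36a4, Slc38a7 and Slc38a10, and blue for the scarce Slc6a3, Slc6a16, Slc6a20a and Slc6a21. Not all scarce SLC6 members fell, Slc6a15 being at 1.14-fold and Slc6a19 at 1.54-fold of unlesioned in the mean of the genotypes.

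Promoter sequence was read for 47 of the 64 members from RefSeq (GRCm38.p6), as the 250 bases before an annotated start. CACGTG, the E-box core read by the lysosomal regulators of the MiT family, was searched as that palindrome on both strands and was present in 9 of 47 members (19.1%) and in 6.04% of 27025 genes in the table. It was in 2 of 11 members called higher in the mean of the genotypes, 3 of 13 called lower and 4 of 23 not called. The median share of G and C bases in the windows was 60.4%, 57.2% and 57.6% in these sets, against 52.0% over all genes. The part of base composition in the CACGTG shares was not tested. TGATGNAA, the core of the amino acid response element, was in 3 of 47 members and 3.53% of all genes. The antioxidant element TGACNNNGC was in 6 of 47 (10.1% of all genes), and the myeloid PU.1 motif GAGGAAGT in 0 of 47 (2.42%), each on both strands. A match is a description of the letters in the window. The 4 windows below are given 5′ to 3′ on the strand of the gene, without annotated exons, with the matched motif in capitals: a riser with TGATGNAA at position -141 before the start (Slc7a7, chr14:54417945-54418194, minus strand), the riser Slc36a4 with none of the 4 motifs (chr9:15709488-15709737, plus strand), a lysosomal riser with CACGTG at -31 (Slc36a1, chr11:55204090-55204339, plus strand), and a faller with CACGTG at -197 (Slc6a3, chr13:73536497-73536746, plus strand).
Slc7a7: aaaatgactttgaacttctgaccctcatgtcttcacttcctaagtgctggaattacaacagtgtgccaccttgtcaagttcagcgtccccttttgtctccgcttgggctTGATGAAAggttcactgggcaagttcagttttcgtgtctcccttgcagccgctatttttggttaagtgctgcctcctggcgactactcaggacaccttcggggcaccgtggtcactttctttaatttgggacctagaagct
Slc36a4: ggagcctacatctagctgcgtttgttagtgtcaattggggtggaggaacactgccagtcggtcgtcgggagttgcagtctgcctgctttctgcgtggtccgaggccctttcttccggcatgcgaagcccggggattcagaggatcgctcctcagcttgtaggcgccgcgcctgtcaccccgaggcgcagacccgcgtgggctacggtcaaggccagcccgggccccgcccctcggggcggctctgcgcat
Slc36a1: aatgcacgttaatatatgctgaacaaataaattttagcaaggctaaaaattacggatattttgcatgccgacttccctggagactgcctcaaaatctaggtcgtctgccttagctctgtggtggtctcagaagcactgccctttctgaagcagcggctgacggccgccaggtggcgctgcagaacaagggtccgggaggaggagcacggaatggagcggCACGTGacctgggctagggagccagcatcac
Slc6a3: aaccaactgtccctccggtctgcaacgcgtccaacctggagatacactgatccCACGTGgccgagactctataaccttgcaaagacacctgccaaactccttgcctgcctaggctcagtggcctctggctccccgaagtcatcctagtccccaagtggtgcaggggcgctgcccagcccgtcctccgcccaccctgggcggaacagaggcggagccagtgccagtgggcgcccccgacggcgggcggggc

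The genotype comparison asks whether the carriers differed between mutant and control. No member was called in unlesioned tissue, at 4dpl or in the difference between the lesion changes (interaction), and 0% of all genes tested were called in each. At an unadjusted p under 0.05 there were 5 of 64 members in unlesioned tissue (5.22% of all genes), 6 at 4dpl (6.92%) and 3 in the interaction (3.81%), and DESeq2 called 1 member in unlesioned tissue and none in the others. The smallest p in unlesioned tissue was that of Slc1a4, higher in the libraries labelled mutant by 1.37 ± 0.34 (log2, SE; edgeR adjusted p = 0.693, unadjusted 0.00121), followed by Slc1a1 at 1.25 ± 0.38 (0.00571 unadjusted) and Slc43a1 at -1.31 ± 0.48 (0.0155). At 4dpl the smallest was that of Slc36a2, lower in the mutant by a log2 difference of -1.30 ± 0.40 (SE; edgeR adjusted p = 0.397, unadjusted 0.00581). Slc6a14 and Slc7a6 were next, Slc7a6 at -0.59 ± 0.25 (0.0299 unadjusted). In the interaction, Slc1a4 was at -1.24 ± 0.47 (SE; 0.0201 unadjusted) and Slc36a2 at -1.23 ± 0.56 (0.0461), each with an edgeR adjusted p = 0.9999.

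At 4dpl 9 members had all 3 mutant libraries below all 3 control libraries (Slc36a2, Slc38a10, Slc38a6, Slc38a7, Slc3a2, Slc6a5, Slc6a6, Slc7a15 and Slc7a6), where 5.44% of all genes did, and none had them above, where 7.34% did. Of these 9, 7 are among the members called higher after the lesion in the mean of the genotypes. High control 4dpl libraries favour membership of both sets, so this overlap is partly built in. Slc3a2 was at 404 ± 41.8 CPM (SD, n = 3) in control and 275 ± 27.9 in mutant lesion libraries. In unlesioned tissue 6 members had all mutant libraries above the control ones (Slc1a1, Slc1a4, Slc38a3, Slc6a4, Slc7a3 and Slc7a9; 4.09% of all genes) and Slc7a6os below (6.28%). None of these differences was called, and with 3 libraries a side the lesion changes of the mutant and control are given side by side without a claim that they differ.

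Genes that handle the transported amino acids were counted in lists beside the carriers, as higher or lower in the mean of the genotypes. Of 20 genes of lysosomal amino acid release and mTORC1 sensing, 13 were called higher and none lower, and 8 were called in control alone. They included the sialic acid and acidic amino acid carrier Slc17a5 at 1.23 ± 0.18 (SE; edgeR adjusted p = 0.00220), the cystine exporter Ctns at 0.90 ± 0.16 (0.00320) and the leucine sensor Sesn1 at 1.08 ± 0.21 (0.00402). Serine, glycine and proline synthesis had 4 of 11 higher, among them Gcsh of the glycine cleavage system at 0.95 ± 0.14 (SE; 0.00220 by edgeR), Aldh18a1 of proline synthesis at 1.01 and Shmt2, which converts serine to glycine, at 0.59. Glutamate, glutamine and GABA metabolism had 3 of 13 higher, the transaminases Got1 (0.75), Gpt2 (0.88) and Abat (0.90). Arginine and polyamine metabolism had 3 of 14 higher and 1 lower, with arginase Arg1 at 2.94 ± 0.71 (SE; 0.00836 by edgeR), the urea cycle enzyme Asl at 0.48 and the nitric oxide synthase Nos1 at -1.28.

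The amino acid response controlled by ATF4 had 3 of 13 higher, the uncharged tRNA sensor Eif2ak4 at 0.90, Nupr1 at 0.64 and Cebpg at 0.56. Glutathione synthesis and cystine use had 1 of 13 higher, the thioredoxin reductase Txnrd1 at 1.08 ± 0.28 (SE; edgeR adjusted p = 0.0112), while Cth (-1.10) and Ggt7 (0.62) did not pass. Vesicular transmitter carriers and transmitter synthesis had 4 of 12 lower and none higher, among them Dbh, which makes noradrenaline, at -2.81 ± 0.67 (SE; edgeR adjusted p = 0.00800), and the vesicular glutamate carriers Slc17a8 at -2.16 and Slc17a7 at -2.06. Against all genes of the same level (36.7% higher at 5 CPM or more, 28.9% lower under 5 CPM), higher calls at 5 CPM or more were 13 of 20 for lysosomal release and sensing, 4 of 9 for serine, glycine and proline, 3 of 9 for glutamate, glutamine and GABA, 3 of 11 for arginine and polyamines, 3 of 10 for the ATF4 response and 1 of 12 for glutathione. Lower calls under 5 CPM were 4 of 10 for the vesicular carriers and transmitter synthesis. Apart from the lysosomal list and glutathione, these shares lie near those of all genes, and no gene of these lists was called in the mutant alone or between the genotypes.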

How the data were processed

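RNA from 12 spinal cord preparations was sequenced, 3 in each of 4 groups given by the sample labels. The authors counted uniquely aligned exon reads per Ensembl gene of GRCm38 with featureCounts and deposited the raw counts, which are not normalized. The paper's methods name BWA as aligner and the submitters' processing notes name STAR and DESeq2 1.2.5. Strandedness is not given in the sources used here, so reads of overlapping genes on opposite strands cannot be told apart. The 37 mitochondrial genes have a count of 0 throughout. Symbols and coordinates came from GENCODE by Ensembl identifier (54723 of 54838 genes).

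The quasi-likelihood test of edgeR 4.0.16 (R 4.3.3) was used on the counts. Genes kept by filterByExpr over the 4 groups (31109) were scaled by TMM, 1 mean per group was fitted to all 12 libraries with glmQLFit, and contrasts were tested with glmQLFTest. Calls needed p under 0.01 and a Benjamini-Hochberg adjusted p under 0.05 over all genes tested. Each SE was derived from its fold change and F value. Depth was between 34805086 and 67251544 counts, and the 3 libraries per group limit the precision. The fits were tested on simulated data. Members, gene lists and tests were chosen with earlier results of these data known. Named with values are best known members of each role, the 20 called members with the smallest p after lesion, the 3 smallest p of each genotype comparison and of each gene list, and the 5 most abundant members, with others named after their values were seen; 1 member named by this rule is not reported here. Alternatives were RLE size factors, other filters, DESeq2 1.42.0, limma 3.58.1 with voom and sample weights, edgeR with legacy set to false, an adjusted p of 0.10, the groups compared only, a replicate block, and each library left out. Promoter windows came from RefSeq.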

Additional observations from a re-analysis of the deposited data

How the results depend on the processing

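Over the mean of the genotypes the 15 higher and 14 lower members stayed within 1.5 times their number under all alternatives run (14 to 17 higher and 10 to 14 lower with each library left out in turn), but not all were the same members: beside the calls lost with a library left out, Slc38a2 was lost with RLE, Slc6a4 with the block and Slc1a6 without a filter. Calls within a genotype moved, and the cause was not tested. In control the 3 lower members became 13 with DESeq2, 12 with voom, 13 with legacy set to false, 13 at an adjusted p of 0.10, 5 with a replicate block and 1 in a fit of the groups compared only, and ranged from 0 to 10 with each library left out. The 12 higher members of the control became 14 with DESeq2, 16 with voom, 14 with legacy set to false, 16 at an adjusted p of 0.10 and 9 with the groups compared only. With each library left out they ranged from 0 to 14: none was called without control unlesioned library 2, control 4dpl library 1 or control 4dpl library 2, 1 without control unlesioned library 3, 5 without mutant unlesioned library 3 and 7 without control 4dpl library 3. In the mutant, with 0 calls, higher members were 1 without a filter, 7 with DESeq2, 9 with voom, 7 with legacy set to false and 8 at an adjusted p of 0.10, and lower members 1, 9, 8, 8 and 8 in the same order. Leaving out libraries gave 0 to 7 higher and 0 to 8 lower there. Between genotypes in unlesioned tissue DESeq2 called 1 member. With the replicate number as a block, 14 members were higher in control, 16 higher and 16 lower in the mean and 0 in the mutant. Correlations of same-numbered unlesioned and lesion libraries were 0.19, 0.05 and 0.19 in control. Each was above the highest value with another number (-0.02, 0.04 and -0.02). In the mutant they were -0.03, 0.07 and -0.07, against 0.16, 0.02 and 0.07. The paper's sample list numbers some of these libraries differently. Whether the numbers pair libraries of a mouse can therefore not be decided here, and the main fit did not pair them.

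Directions of uncalled changes reversed as follows. Slc1a4 in the mutant was -0.0571 with RLE, -0.0572 with DESeq2 and -0.15 with the groups compared only. Slc1a5 was 0.0742 without a filter, 0.32 with voom and 0.0277 with the block in control, -0.0272 with RLE and with DESeq2 in the mean, and -0.0640 with the groups compared only in the mutant. Voom gave 0.34 for Slc43a1 and 0.0852 for Slc7a11 in the mutant and 0.11 for Slc7a5 in the mean, and the groups compared only gave -0.0799 for Slc7a5 in the mutant. Slc43a3 in control was 0.11 without a filter and 0.21 with voom, and Slc7a1 in the mutant 0.0559 and 0.0844. With each library left out, values spanned 0 for Slc1a2 (-0.39 to 0.10 in control, -0.27 to 0.0416 in the mean, -0.26 to 0.21 in mutant), Slc1a4 (-0.22 to 0.39, mutant), Slc1a5 (-0.27 to 0.48, control; -0.0433 to 0.34, mean), Slc38a3 (-0.0201 to 0.91, mutant), Slc43a1 (-0.48 to 0.29, mutant), Slc43a3 (-0.13 to 0.32, control; -0.0281 to 0.29, mean; -0.0738 to 0.58, mutant), Slc7a1 (-0.26 to 0.22, mutant), Slc7a11 (-0.93 to 0.0350, control; -0.78 to 0.39, mutant) and Slc7a5 (-0.60 to 0.16, control; -0.22 to 0.16, mean; -0.0069 to 0.44, mutant). Members under 5 CPM rest on few counts, and 3 libraries a group limit all comparisons.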

Other observations

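The ratio of light to heavy chains was looked at after the values were seen. The per-length level of the 6 light chains that pair with Slc3a2 (Slc7a5, Slc7a6, Slc7a7, Slc7a8, Slc7a10 and Slc7a11), summed and divided by that of Slc3a2, was 0.808, 0.811 and 0.810 in control unlesioned, 0.819, 0.783 and 0.983 in control 4dpl, 1.27, 1.13 and 1.16 in mutant unlesioned and 1.16, 0.987 and 0.905 in mutant 4dpl libraries. The 3 mutant unlesioned ratios were above all 6 control ratios, and the genotypes overlapped at 4dpl. No test was run, since the ratio was chosen for these values.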
